A study of Bos taurus with 2 samples.

Results

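The cytosolic translation initiation and elongation factors of cattle were taken as the genes whose array name starts with EIF or EEF and a digit, without the EIF2C and EIF2AK names, together with TPT1, NACA, BTF3, PABPC1 and PABPC4. The rule used names and no measured value. It found 60 of the 17073 named genes on the array, and these 60 hold 179 of the 43652 probes. RNA came from Holstein raw milk whey, as the pellet of a 10000 g spin of 90 min that was washed by further spins (labelled exosome, meaning vesicles released by cells) and as the liquid left above that pellet (labelled supernatant). For each fraction, RNA of 3 raw milks was pooled in equal parts and 100 ng was labelled with the dye Cy3 for 1 single-colour Agilent bovine array of 60-base probes. With 1 array per fraction there are no replicates, no test was possible, and every difference below is between these 2 arrays. The spin is slower than those commonly used to pellet small vesicles, so the name exosome is kept here as a label. No treatment, genotype or time separates the fractions, which were spun from the same kind of whey.

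Translation begins when initiation factors (eIFs) bring the small ribosomal subunit, the initiator tRNA and a capped messenger RNA together and the start codon is found. Elongation factors (eEFs) then deliver each aminoacyl-tRNA and move the ribosome along the message. Many mRNAs for elongation factors and a few for initiation factors start with a run of pyrimidines, the TOP motif, through which mTOR signalling controls their translation together with that of ribosomal protein mRNAs. In the lactating mammary gland these factors serve the synthesis of large amounts of milk protein.

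The probes on which several results turn are printed first, 5′ to 3′ in the sense of the transcript, as the array files give them, with positions in build HGSC Btau_3.1. Whether a probe lies in an exon or an untranslated region was not analysed here. The first pair targets EEF1A1, at chr9:12615581-12615718 and chr9:12615559-12615696 on the minus strand. They overlap by 38 bases of the transcript yet differ there by G31A and G34A, counted from 1 at the 5′ end of the first probe, and the 26 bases that both share without a difference are in capitals. The next pair targets TPT1, at chr12:14461303-14462145 and chr12:14461253-14461312 on the minus strand, with the 10 bases they share in capitals. The wide genomic span of the first TPT1 probe marks a gap in its genome match, as where a probe crosses an intron. EIF2B4 (plus strand, chr11:74385182-74385241 and chr11:74386489-74386548) is shown because its probes differed in whether the supernatant was detected. EIF4E1B (plus strand, chr7:37413840-37413899) is the member with nearly equal signals on both arrays, and EEF1D (plus strand, chr14:938160-938333) has a probe with a genomic gap that was detected in both fractions.
EEF1A1 probe at base 638: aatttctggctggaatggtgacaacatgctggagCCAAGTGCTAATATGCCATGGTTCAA
EEF1A1 probe at base 660: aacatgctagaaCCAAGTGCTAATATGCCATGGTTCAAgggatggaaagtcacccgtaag
TPT1 probe at base 453: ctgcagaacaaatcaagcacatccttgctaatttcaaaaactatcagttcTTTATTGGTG
TPT1 probe at base 503: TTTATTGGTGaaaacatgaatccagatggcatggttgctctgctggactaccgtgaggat
EIF2B4 probe at base 526: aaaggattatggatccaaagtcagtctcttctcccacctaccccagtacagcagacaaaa
EIF2B4 probe at base 970: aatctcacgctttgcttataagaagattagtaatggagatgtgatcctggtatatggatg
EIF4E1B probe at base 629: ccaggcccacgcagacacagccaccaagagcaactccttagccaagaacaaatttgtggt
EEF1D probe at base 1060: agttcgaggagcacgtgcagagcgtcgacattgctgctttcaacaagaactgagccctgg

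A probe counts as detected when the scanner software flags its signal as well above background, and a gene when at least 1 probe has that flag. On the exosome array 55 of the 60 factor genes were detected (91.7%), against 66.5% of all named genes. On the supernatant array 22 were detected (36.7%), against 22.2% of all named genes. All 22 were also detected on the exosome array by the same probe, so 22 members were measured on both arrays (20.7% of all named genes were). Another 33 were detected on the exosome array alone (45.4% of all named genes), none on the supernatant array alone (1.1%), and 5 on neither (32.4%). Counted by probes, 162 of 179 had the flag in exosome (90.5%, against 58.5% of all probes) and 37 in supernatant (20.7%, against 13.1%). As these are bulk fractions labelled from equal RNA mass, a larger number of contributing vesicles or cells and more of an RNA in each cannot be told apart.

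Signals below are the scanner software's background-subtracted intensities without scaling between arrays. Over the 179 factor probes they ran between 2.24 and 189216 on the exosome array with a median of 1769, and between 1.82 and 196 on the supernatant array with a median of 3.17. The detected factor probes had signals of 12.9 or more on the exosome array (median 2587) and of 9.83 or more on the supernatant array (median 23.7). Over all probes the lowest detected signal was 11.3 in exosome and 8.75 in supernatant, so the median detected factor probe lay near the limit in supernatant and far above it in exosome.

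**Figure D1:**
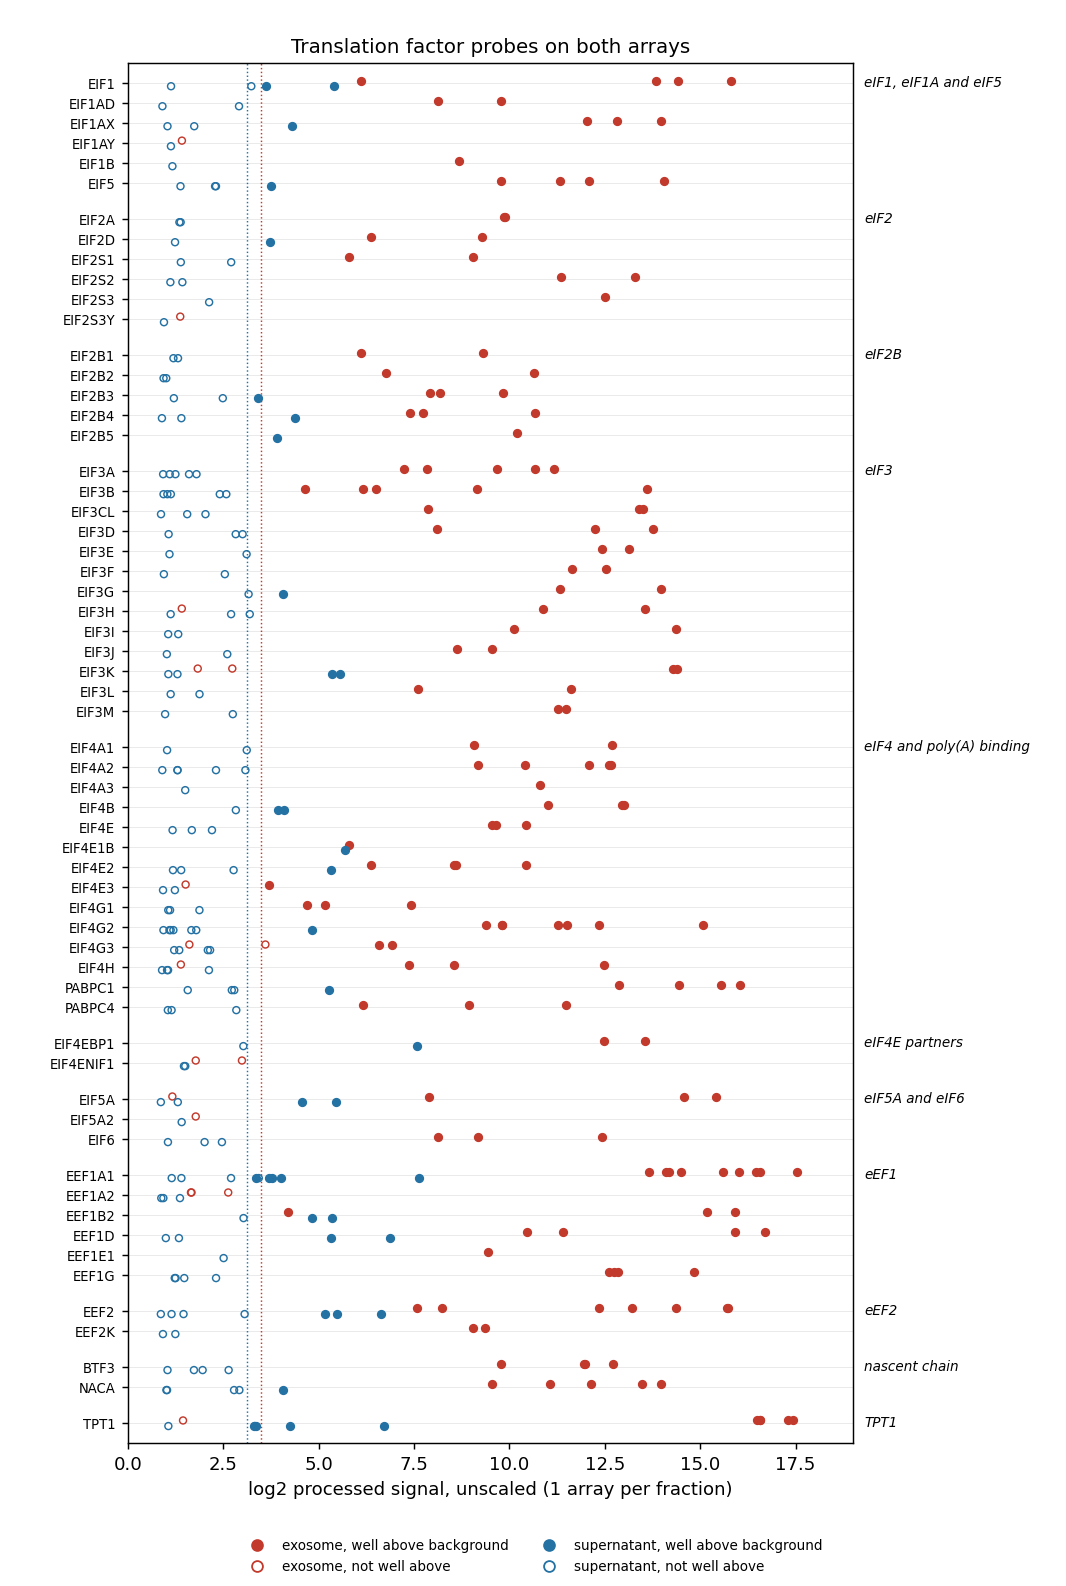
Each row is a factor gene and each point 1 of its probes, placed by its log2 processed signal without scaling, with exosome in red and supernatant in blue, filled where well above background and open where not. Dotted lines mark the lowest detected signal on each array; detection follows the flag, so a few open points lie past their line, and 55 genes have a filled exosome point while 22 have a filled supernatant point.

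The difference of a gene is the log2 exosome signal minus the log2 supernatant signal, averaged over its probes detected on both arrays. Without scaling all 22 members measured on both arrays were brighter on the exosome array, 21 of them by at least 2-fold, where 82.7% of all named genes measured on both passed that size. The whole exosome array was the brighter one, and the median gene differed by 3.42. Differences are therefore also given relative to that median gene. Relative to it 20 of the 22 members lay at least 2-fold above (37.7% of all named genes did), EIF2B4 lay within 2-fold of it, and EIF4E1B lay at least 2-fold below (36.7% did). The median member was 9.23 without scaling and 5.82 relative to the median gene.

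How many factors count as enriched depends on where zero is set. With each array scaled to its 75th percentile over the probes detected on both, which subtracts 5.45 from each difference and puts the median gene itself below zero, 14 members were at least 2-fold higher in exosome, where 18.4% of all named genes were, and 2 (EIF4E1B and EIF2B4) at least 2-fold lower, where 62.8% were. The 75th percentile over all probes gave the same member counts, beside 17.8% of all named genes higher and 64.2% lower. By array medians 20 were higher (36.7% of all named genes) and 1 lower (37.4%). By 8 spike-in probes the member counts were also 20 and 1, beside 51.9% of all named genes higher and 20.2% lower. Without scaling 21 were higher (82.7%) and 0 lower (1.3%). EIF2B3 and EIF4E2 also lay below zero under both 75th percentile scalings, and EIF2D did under the one over all probes, so the direction of these 5 genes depends on the scaling. The other 17 members measured on both were on the exosome side under each of these scalings.

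**Figure D2:**
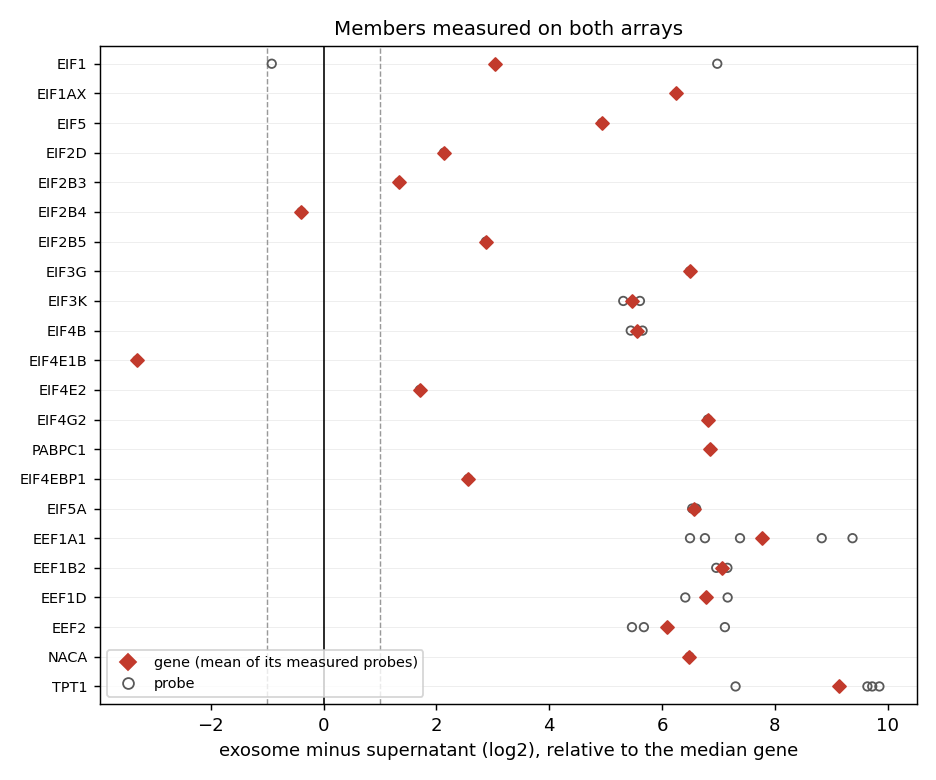
Exosome minus supernatant log2 difference relative to the median gene for the 22 factors measured on both arrays, in the order of their complexes. Red diamonds are genes and open circles their probes measured on both arrays; dashed lines mark 2-fold, and 20 genes lie right of the upper line with TPT1 at 9.13 and EIF4E1B at -3.30.

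The factors that find the start codon were 6 genes, of which 3 were measured on both arrays, 2 in exosome alone and 1 on neither. EIF1, which keeps the scanning ribosome from settling on a wrong codon, was detected by 4 probes in exosome and by 2 in supernatant. At base 592 of its transcript the signal was 57227 in exosome and 42.5 in supernatant, a difference of 10.40. At base 1049 of an expressed sequence tag it was 69.6 in exosome and 12.3 in supernatant, a difference of 2.50. These 2 probes lay on opposite sides of the median gene, at 6.98 and -0.92 relative to it, and EIF1 was the only member with probes on both sides. Without the expressed sequence tag EIF1 lay at 6.96, against 3.03 with it. Its probes at bases 478 and 1181, detected in exosome alone, had bounds of at least 2323-fold and at least 1689-fold. EIF1AX, the X-linked gene of the partner factor eIF1A, read 16138 in exosome against 19.8 in supernatant (difference 9.67), and its other 2 probes, detected in exosome alone, read 7166 and 4156 in exosome, against 2.05 and 3.34 in supernatant. EIF5, which triggers GTP hydrolysis by eIF2 at the start codon, read 4374 in exosome and 13.4 in supernatant at base 3608 (difference 8.35), and its 3 probes further 5′ read between 873 and 16935 in exosome, against 2.60 to 4.95 in supernatant, not well above background. EIF1B, a close relative of EIF1, read 409 in exosome and 2.24 in supernatant, and EIF1AD, named for its eIF1A domain, read 278 and 878 in exosome, against 1.87 and 7.53 in supernatant. Both were detected in exosome alone. A gene of that kind has only a lower bound, set against the higher of the lowest detected supernatant signal and the probe's own, and averaged over its detected probes, which was at least 46.7-fold for EIF1B and at least 56.4-fold for EIF1AD. EIF1AY, the name of the Y-linked eIF1A gene, was not well above background on either array, with 2.67 in exosome and 2.18 in supernatant.

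Of the eIF2 group, which carries the initiator tRNA, 5 of 6 genes were detected in exosome and only EIF2D in supernatant. EIF2S3, the GTP-binding gamma subunit, read 5768 in exosome and 4.37 in supernatant, at least 659-fold higher in exosome. EIF2S2, the beta subunit, had a bound of at least 582-fold, and EIF2A, a separate protein that can also deliver initiator tRNA, one of at least 106.9-fold. EIF2S1, the alpha subunit whose phosphorylation shuts down initiation under stress, read 530 and 55.5 at its 2 probes in exosome, against 2.62 and 6.53 in supernatant, at least 19.6-fold. That bound lay less than 2-fold past the median gene, whereas the bounds of EIF2S2 and EIF2S3 lay further past it. EIF2D, which acts in alternative initiation and ribosome recycling, read 624 in exosome and 13.3 in supernatant at base 1783, a difference of 5.55 and 2.13 relative to the median gene. At base 1351 it read 83.1 in exosome and 2.35 in supernatant, not well above background, at least 9.49-fold. EIF2S3Y, the Y-linked gamma subunit gene, was detected on neither array, with 2.59 in exosome and 1.92 in supernatant.

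The eIF2B complex, which reloads eIF2 with GTP, had a median relative difference of 1.34 over its 3 measured subunits. Over all 22 measured factors it was 5.82. Each of the 3 was measured by 1 probe. With no filter on dim probes EIF2B3, EIF2B4 and EIF2B5 lay at 3.63, 3.74 and 3.66, where the median of the 60 factors was 5.39. All 5 subunits were detected in exosome and 3 of them in supernatant. EIF2B5, the catalytic epsilon subunit, was measured by its single probe at 1173 in exosome and 14.9 in supernatant, a difference of 6.29. EIF2B3, the gamma subunit, read 289 in exosome and 10.71 in supernatant at base 838 (difference 4.76). Its probes at bases 1267 and 1434 read 241 and 908 in exosome, against 2.30 and 5.61 in supernatant, not well above background. Their bounds were at least 27.6-fold and at least 104-fold. Relative to the median gene EIF2B3 lay at 1.34, and at 0.08 with normexp background correction, which ends its 2-fold call. EIF2B4, the delta subunit, read 169 in exosome and 20.8 in supernatant at base 526, the first of its printed probes, a difference of 3.02. At base 970, the second printed probe, it read 211 in exosome and 1.86 in supernatant, at least 24.1-fold, and at base 1370 it read 1628 in exosome and 2.64 in supernatant, at least 186-fold. The position of EIF2B4 close to the median gene (-0.39) thus rests on 1 of its 3 probes, and the bounds of the other 2 lie above that gene. EIF2B1 and EIF2B2, the alpha and beta subunits, were detected in exosome alone. EIF2B1 read 68.8 and 629 in exosome, against 2.29 and 2.49 in supernatant, at least 23.8-fold, and EIF2B2 read 108 and 1607 in exosome, against 2.01 and 1.91 in supernatant, at least 47.6-fold.

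The eIF3 complex, the large scaffold that binds the small ribosomal subunit and mRNA, was detected in exosome for all 13 genes and in supernatant for 2. EIF3G, an RNA-binding subunit, read 15978 in exosome and 16.6 in supernatant at base 1065 (difference 9.91), and 2560 in exosome and 8.96 in supernatant at base 403, where the supernatant was not well above background. EIF3K, a small peripheral subunit, was measured at 2 probes 3 bases apart. They read 20122 and 21407 in exosome, against 47.4 and 41.1 in supernatant, and gave 8.73 and 9.02. Its 2 other probes, taken from a different sequence record, were not well above background on either array. The remaining 11 subunits had bounds that ran between at least 29.6-fold for EIF3B, a core subunit, and at least 801-fold for EIF3E. EIF3E read 5480 and 8977 in exosome, against 2.13 and 8.64 in supernatant. EIF3I, EIF3H and EIF3F had bounds of at least 555-fold, 533-fold and 497-fold, and EIF3CL, EIF3M and EIF3D of at least 351-fold, 305-fold and 303-fold. EIF3L, EIF3A and EIF3J were lower, at least 88.9-fold, 72.6-fold and 62.0-fold. Each of the 11 bounds was at least 2-fold past the median gene, though not all of them past the zero of the 75th percentile scalings. Within EIF3B the 5 exosome signals ran between 24.9 and 12462 along the same gene, with supernatant signals between 1.91 and 5.98, so its low bound is a mean over unlike probes.

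The eIF4 group and the poly(A)-binding proteins, which bind the 2 ends of the mRNA, spanned the widest range. PABPC1, the main cytoplasmic poly(A)-binding protein, read 47607 in exosome and 38.4 in supernatant at base 2421, a difference of 10.27. Its other 3 probes were detected in exosome alone, and at base 2289 it read 67362 in exosome and 2.96 in supernatant. The probe at base 2421 has no match in the build. Those at bases 2289 and 2556 match an unplaced sequence and chromosome 5, and which copy of the gene each probe binds was not tested. EIF4G2, a relative of the eIF4G scaffold that does not bind the cap-binding protein, was detected in exosome by all 7 probes and in supernatant by the last, which read 34206 in exosome and 28.5 in supernatant (difference 10.23). The other 6 read between 664 and 5222 in exosome, against 1.91 to 3.46 in supernatant. EIF4B, a stimulator of the helicase eIF4A, read 8267 and 7946 in exosome at bases 1739 and 1932, against 15.4 and 17.1 in supernatant, a mean difference of 8.97. EIF4E2, a cap-binding repressor, read 1395 in exosome and 40.0 in supernatant at base 750 (difference 5.12), and its other 3 probes, detected in exosome alone, read between 82.1 and 385 in exosome, against 2.27 to 6.82 in supernatant. EIF4E1B, an eIF4E relative described in oocytes of other vertebrates, read 56.0 in exosome and 51.8 in supernatant at its single probe, printed above. Its difference of 0.11 made it the only one of the 22 that differed by less than 2-fold without scaling, and it lay at -3.30 relative to the median gene.

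The remaining 9 genes of the group were detected in exosome alone. EIF4A2, a helicase that unwinds the 5′ leader, had 5 probes between 583 and 6501 in exosome, against 1.87 to 8.45 in supernatant, at least 306-fold. EIF4A1, its close relative, and EIF4A3, the helicase of the exon junction complex, had bounds of at least 214-fold and at least 202-fold. EIF4E, the cap-binding protein itself, was at least 107.1-fold higher in exosome, EIF4H, a helper of eIF4A, at least 80.6-fold, and PABPC4 at least 52.9-fold. The named eIF4G scaffolds, EIF4G1 and EIF4G3, read far below the median detected factor probe in exosome (2587), though not below the median over all probes there (28.0) at each probe. EIF4G1 read 35.6, 25.7 and 172 in exosome, against 2.15, 3.67 and 2.08 in supernatant, at least 6.17-fold, and EIF4G3 was detected in exosome by 2 of 4 probes, at least 12.3-fold. EIF4E3, a further cap-binding relative, read 12.9 in exosome and 1.89 in supernatant at its 1 detected probe, at least 1.47-fold. The bounds of EIF4G1, EIF4G3, EIF4E3 and EIF2S1 did not reach 2-fold past the median gene, and those of the other 29 of 33 exosome-alone members did, where 40% of the bounds of all exosome-alone genes did. With the 75th percentile over probes detected on both arrays 18 of the 33 bounds were at least 2-fold past zero (15.2% over all such genes), and with that over all probes 17 were (14.2%). By array medians 29 were (39%), by spike-in probes 31 (59.7%) and without scaling 32 (94.5%).

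Of the proteins that bind eIF4E, EIF4EBP1, the repressor that mTOR switches off, read 12077 in exosome and 191 in supernatant at base 738, a difference of 5.98 and 2.56 relative to the median gene. At base 537 it read 5701 in exosome and 8.14 in supernatant, not well above background, which allows at least 651-fold. The 2 probes thus disagreed, with 63.1-fold measured at the first named and a much higher bound at the other. EIF4ENIF1, the eIF4E transporter, was detected on neither array, with 7.94 and 3.43 in exosome and 2.77 and 2.83 in supernatant.

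EIF5A, the hypusine-carrying factor that helps ribosomes through difficult peptide bonds, read 43701 and 24632 in exosome at bases 1172 and 1189, against 44.1 and 23.7 in supernatant. The 2 overlapping probes gave 9.95 and 10.02. At base 392, over a genomic gap, it read 235 in exosome and 2.48 in supernatant, at least 26.9-fold. Its remaining probe was detected on neither array. EIF6, which keeps the ribosomal subunits apart and acts in making the large one, was detected in exosome alone by all 3 probes, between 281 and 5477, against 2.07 to 5.52 in supernatant, at least 110-fold. EIF5A2, a relative with restricted expression, was detected on neither array (3.43 in exosome, 2.66 in supernatant).

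The eEF1 group had a median relative difference of 7.06 over its 3 measured genes, against 5.82 over all 22 measured factors. EEF1A1, the GTPase that brings aminoacyl-tRNA to the ribosome, was detected by all 9 probes in exosome, between 12838 and 189216, and by 5 in supernatant, between 10.3 and 196. Its measured probes gave 10.80, 12.25, 12.79, 9.91 and 10.18 from 5′ to 3′, a mean of 11.19. At the 2 printed probes it read 17581 and 12838 in exosome, against 2.64 and 2.22 in supernatant, at least 2008-fold and at least 1467-fold. Both probes, with their 2 base differences, were thus detected in exosome and not in supernatant, and which copy of the gene each one binds was not tested. The probe at base 2151 matches chromosome 18 and the others chromosome 9, so signal from another copy of this gene cannot be told apart there. EEF1B2 and EEF1D are exchange factors that reload eEF1A with GTP. EEF1B2 read 61747 and 37378 in exosome, against 40.5 and 28.1 in supernatant, with differences of 10.57 and 10.38 at probes 3 bases apart. Its remaining probe, at base 1023 of an expressed sequence tag, read 18.2 in exosome and 8.17 in supernatant, not well above background, at least 2.08-fold, and with a weaker detection flag that takes in this probe the relative difference of EEF1B2 was 4.07 in place of 7.06. EEF1D read 61138 in exosome and 40.0 in supernatant at the printed probe (10.58), and 106959 in exosome and 118 in supernatant at base 1087 (9.83). EEF1G, the structural subunit of the exchange complex, was detected in exosome alone by 4 of 4 probes, between 6273 and 29334, against 2.34 to 4.96 in supernatant, at least 1121-fold. EEF1E1, a small protein of the tRNA synthetase complex, read 691 in exosome and 5.69 in supernatant, at least 78.9-fold. EEF1A2, the copy used in muscle and neurons, was detected on neither array, with 3.14 to 6.19 in exosome and 1.83 to 2.57 in supernatant.

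EEF2, which moves the ribosome by 1 codon, was detected by all 7 probes in exosome and by the last 3 in supernatant. Those at bases 2924, 3103 and 3127 read 21181, 54731 and 52911 in exosome, against 44.9, 100.1 and 35.8 in supernatant, with differences of 8.88, 9.09 and 10.53. The 4 probes further 5′ read between 192 and 9481 in exosome, against 1.82 to 8.33 in supernatant. The probe at base 3127 is matched to chromosome X and the others to chromosome 7. EEF2K, the kinase that inhibits eEF2, read 528 and 660 in exosome, against 1.89 and 2.37 in supernatant, at least 67.4-fold. NACA and BTF3 form the complex that meets nascent chains at the ribosome. NACA was detected by all 5 probes in exosome, between 751 and 15972, and in supernatant by the last, which read 15972 in exosome and 16.7 in supernatant (difference 9.90). BTF3 was detected in exosome alone by 4 of 4 probes, between 872 and 6684, against 2.05 to 6.23 in supernatant, at least 355-fold.

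TPT1, the translationally controlled tumour protein and a member of the TOP mRNAs, had the largest difference of the 22 members, 12.55 (5985-fold), or 9.13 relative to the median gene. Its printed probes read 92524 and 162432 in exosome, against 10.2 and 19.1 in supernatant, with differences of 13.14 and 13.06. The probe at base 492 gave 13.27, and that at base 759, nearest the 3′ end, read 176402 in exosome and 105 in supernatant and gave 10.72. A further probe at base 487 read 97670 in exosome and 10.04 in supernatant, which was not well above background. A sixth was detected on neither array. In supernatant, 4 of the 5 probes detected in exosome lay between 9.83 and 19.1, close to the detection limit.

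Members with a TOP motif known from mammals (EEF1A1, EEF1B2, EEF1D, EEF1G, EEF2, EIF3A, EIF3E, EIF3F, EIF3H, EIF4B, PABPC1 and TPT1) were set beside the other 48. Of the 12, 7 were measured on both arrays and 5 in exosome alone, with a median relative difference of 6.86 over the 7. Of the other 48, 15 were measured on both, 28 in exosome alone and 5 on neither, with a median of 3.03 over the 15. That median is the value of EIF1, which lay at 6.96 without its expressed sequence tag probe. The median of the 15 without that probe was not computed, so the size of the gap between the groups partly rests on it. The ranges overlap, since EIF4G2, EIF5A, EIF3G, NACA and EIF1AX of the others lie between 6.26 and 6.81, and EIF4B of the TOP members at 5.55.

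The factors lay between the ribosomal protein genes and all genes. Of 86 cytosolic ribosomal protein genes, 78 were measured on both arrays with a median relative difference of 6.89, against 5.82 for the 22 factors and 0 for all named genes by construction. Supernatant detection was at 90.7% for ribosomal protein genes. Counting a gene detected in exosome alone at its bound, the median over the 55 detected factors was 202-fold, over ribosomal protein genes 1233-fold, over the 20 cytosolic aminoacyl-tRNA synthetases 112-fold and over all named genes 13.0-fold. These medians mix measured folds with lower bounds in every group, and no test was run on it.

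**Figure D3:**
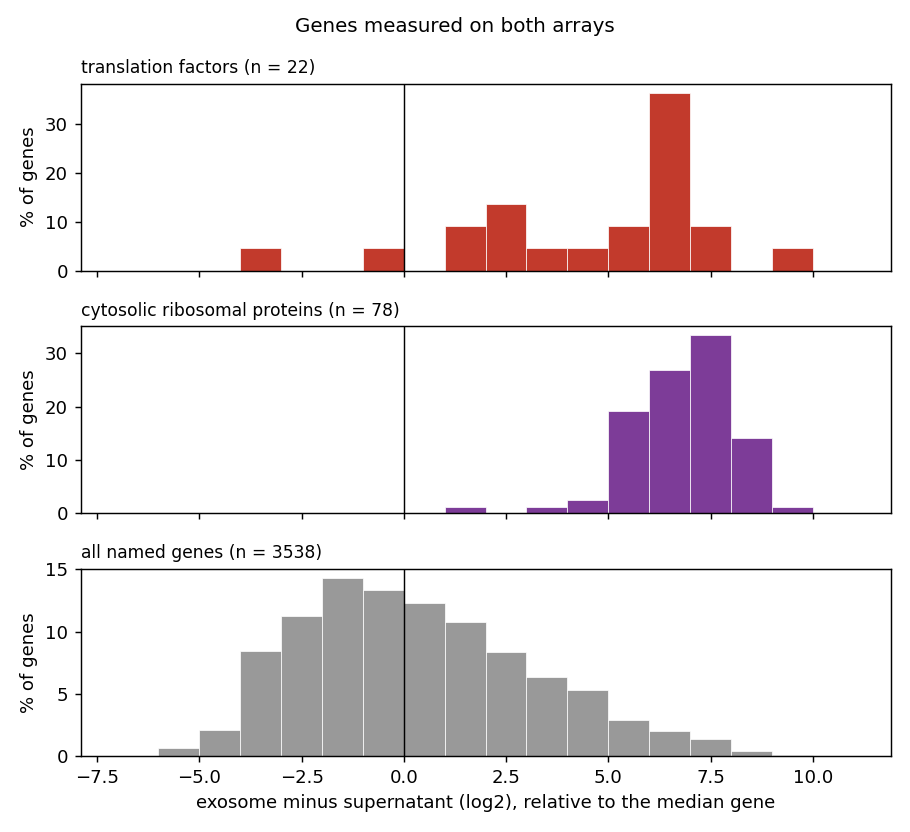
Share of genes (y axis, % of the genes measured on both arrays) by exosome minus supernatant log2 difference relative to the median gene (x axis), in bins of 1, for 22 translation factors, 78 cytosolic ribosomal protein genes and 3538 named genes. The factors have their tallest bin, with 8 genes, between 6 and 7 and a lower group of 6 between 1 and 4, while the named genes are spread on both sides of 0.

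In supernatant the last probe of a factor transcript was detected more often than its first. Distance to the 3′ end was not measured. In 46 member transcripts with probes at least 100 bases apart, the last probe was detected in supernatant in 13 (28.3%) and the first in 4 (8.70%). Over 8999 transcripts of all named genes the shares were 17.1% for the last probe and 8.29% for the first. In exosome the last and the first factor probe were detected in 42 transcripts each (91.3%), while over all named genes the last was detected in 71.5% and the first in 56.2%. With nearly all factor probes detected in exosome, a gap between their ends could hardly show there. In 11 factor transcripts the last probe alone was detected in supernatant, in 2 (EIF2B3 and EIF2B4) the first alone, in 2 (EEF1A1 and TPT1) both and in 31 neither. The first-only genes are the eIF2B subunits whose differences were also among the smallest. Of the transcripts with 1 end detected, 84.6% of the factors' and 70.6% of all genes' had it at the last probe. Probes differ in sequence and sensitivity, and what sets the gap was not tested.

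**Figure D4:**
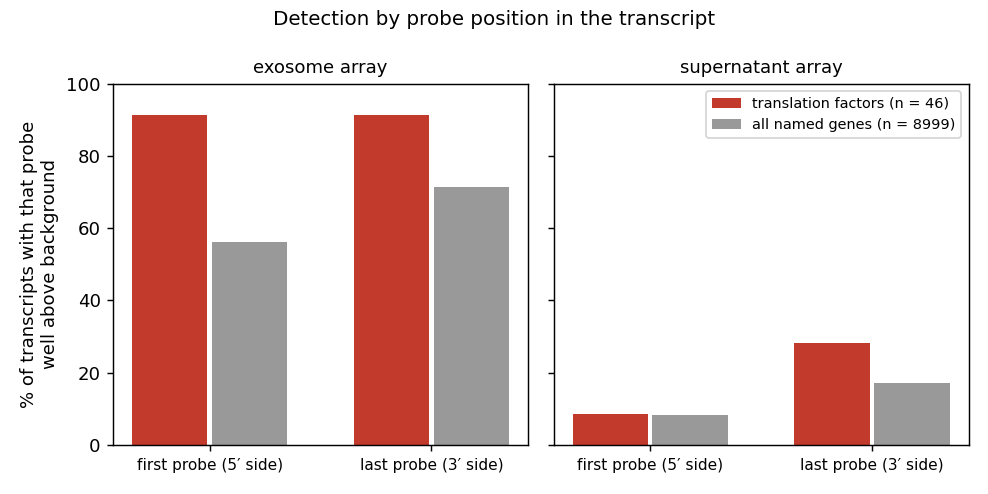
Share of transcripts (y axis, %) whose first or last probe was detected, for exosome in the left panel and supernatant in the right, for 46 factor transcripts in red and 8999 transcripts of named genes in grey. In supernatant the factors reach 28.3% at the last probe and 8.70% at the first, while in exosome both ends are at 91.3%.

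A probe that crosses an intron matches spliced RNA along its whole length and genomic DNA only in parts, and such probes have a gap in their genome match. Of 37 factor probes with a gap, 35 were detected in exosome (94.6%) and 3 in supernatant (8.11%). These 3 were EEF1D at base 1060, EEF2 at base 3127 and TPT1 at base 453. The EEF2 probe is matched to chromosome X and the other EEF2 probes to chromosome 7. Whether the gap of that probe is an intron of EEF2 was not tested. Of 131 factor probes matched without a gap, 121 were detected in exosome (92.4%) and 32 in supernatant (24.4%). A gap was read from a genomic span longer than the probe. A probe matched over only part of its length thus counts as without a gap, as for TPT1 at base 492 and BTF3 at base 573. Whether the unmatched part of such a probe crosses an intron was not tested. Over the probes of all named genes the exosome shares were 53.7% with a gap and 62.6% without, and the supernatant shares 6.94% and 14.3%. Another 11 factor probes have no match in the build.

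The spread that can be measured is technical. Probes printed on 4 spots, none of them a factor, gave an SD of 0.18 for the log2 difference within a probe (9 probes detected on both arrays). Different probes of a gene gave a far larger SD, 1.72 over the 9 factors with over 1 measured probe and 1.71 over 542 genes. Of these 9 factors EIF1 had the widest range, 2.50 to 10.40, its low value from the expressed sequence tag. The SD without that probe was not computed. For probes at most 30 bases apart the 6 factor pairs differed by a median of 0.25 and at most 1.44, in EEF2, whose 2 probes match different chromosomes. Of the 22 measured members, 13 rest on 1 probe and 20 on a part of their probes, so a single value carries the spread between probes and says nothing of the spread between milks.

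Of 26 other genes of the pathway, listed outside the rule, 25 were detected in exosome (96.2%, against 66.5% of all named genes). In supernatant 5 were detected (19.2%, against 22.2%). With so few measured the list is described by its members. PDCD4, an inhibitor of eIF4A, lay at 4.89 relative to the median gene, the S6 kinase RPS6KB2 at 1.96 and MKNK2, a kinase of eIF4E, at 1.08. LARP1, which binds TOP mRNAs, lay at -0.61 by 2 of its 4 probes. GSPT2, a release factor relative, lay at -2.77 by 1 of its 2 probes. The remaining probes of both genes were detected in exosome alone. Counting those at their bounds, the mean log2 difference without scaling was at least 3.52 for LARP1 and 2.70 for GSPT2. The median gene lay at 3.42. All 4 eIF2 kinases and all 8 mitochondrial translation factors were detected in exosome alone (45.4% of all named genes were). RPTOR, a subunit of mTOR complex 1, was detected on neither array (32.4%). Secretory mammary genes moved with the factors, and their part in the results was not tested. All 7 (caseins, LALBA, PAEP and GLYCAM1) were measured on both arrays, with a median relative difference of 7.26 and signals summing to 5260520 in exosome and 30071 in supernatant over 26 probes. Of 7 leukocyte genes, PTPRC, CD14 and LYZ were measured on both arrays with a median of -2.34. That median is the value of CD14, measured by 1 of its 3 probes, with its others detected in exosome alone. LYZ was measured by 1 of its 2 probes, and the 2 measured probes of PTPRC differed by -0.47 and 2.97 without scaling. With exosome-alone probes at their bounds, the mean log2 difference without scaling was at least 3.84 for CD14 and 1.29 for LYZ. CD3E, CSF3R, ITGAM and CXCR2 were detected on neither. The 18 probes of the 7 leukocyte genes summed to 6989 in exosome and 4346 in supernatant. Of the red cell genes HBA was detected on both, while HBB and ALAS2 were detected on neither. The 3 probes of the red cell genes summed to 23463 in exosome and 1143 in supernatant.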

How the data were processed

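The deposited intensity values are the processed signals of Agilent Feature Extraction 10.7.3.1, background-subtracted and detrended within each of 2 arrays and not scaled between them, per the file headers. The authors' deposited log2 table equals the log2 of these signals within 0.001 for 43602 probes printed on 1 spot, with medians of 4.81 for exosome and 1.32 for supernatant. Dim spots carry the software's surrogate values, so no order was read among undetected signals. No further step of the authors' is named in the labels or headers. The 2 arrays share a slide and a scan.

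Control spots and outlier spots (5 in exosome, 2 in supernatant, none of a factor) were left out, no spot was saturated, and spots of a probe were averaged. Gene names are those of the array files. Python 3.11.15 with numpy 2.4.6 and pandas 2.3.3 was used, and R 4.3.3 with limma 3.58.1 for the normexp (offset 50) and quantile alternatives. Detection was the software's well-above-background flag, and the size call was 2-fold. Main scaling was the 75th percentile over probes detected on both arrays, with differences then taken relative to the median named gene, which no constant scaling moves. Other alternatives were array medians, spike-in probes, no scaling, weaker, stricter (4 times the lowest detected signal) and no filter on dim probes, all or the brightest probe per gene, RefSeq probes, updated names, outlier spots kept, the deposited table and EIF and EEF names alone. The arithmetic was tested on simulated data.

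Signals are given for every member measured on both arrays, as ranges where several of its probes were undetected in supernatant. They are also given for the highest and lowest exosome signal among the exosome-alone members of each complex. Members detected on neither array, and those whose probes fall on both sides of the median gene, have theirs given too. The others appear with their bounds so that each of the 60 is accounted for. Members, lists and alternatives were chosen with earlier results of these data known. A marker of the leukocyte list is not reported here and was left out of its values. With 1 array per fraction the number of arrays limits the precision, and no p-value is given.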

Additional observations from a re-analysis of the deposited data

Results flagged for a closer look

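The array holds 9 probes that the files describe as translation factors but that carry an accession in place of a gene name, so the name rule does not take them. They stand outside the comparisons above. Of the 9, 7 gave a signal well above background in exosome (58.5% of all probes did) and 2 in supernatant (13.1%). The probes with signal are the reason for this list, and the counts are not read as a result. A probe described as elongation factor 1-alpha 1 read 84302 in exosome and 24.9 in supernatant, both detected, a difference of 11.72 and 8.31 relative to the median gene, which is within the range of the EEF1A1 probes. A probe described as elongation factor 1 alpha 1-like read 42192 in exosome and 2.47 in supernatant, not well above background. The 2 probes described as eIF5B, the GTPase that joins the ribosomal subunits and that has no named gene among the 60, read 1388 and 239 in exosome, against 6.97 and 2.16 in supernatant. A probe described as eIF4 gamma 3 read 101 in exosome and 11.7 in supernatant, both detected, a difference of 3.11 and -0.30 relative to the median gene. Probes described as eIF4 gamma 1 and as the eIF4E transporter read 267 and 168 in exosome, against 7.14 and 2.08 in supernatant. The named EIF4ENIF1 probes, by contrast, were not well above background on either array.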

How the results depend on the processing

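No paired analysis was possible because each fraction has 1 array and no replicate numbers. The median over the members stayed above the median gene under each alternative for which it was computed. Where every probe of a gene was required, no median was computed. The 2 members left there, EIF2B5 and EIF4E1B, lay at 2.88 and -3.30 in the main analysis. The median relative difference of the measured members (5.82) became 5.38 with quantile normalization, 5.52 with normexp, 5.41 with the weaker detection flag, 6.58 with the stricter filter, 5.39 with no filter, 6.27 with the brightest probe per gene, 6.20 with RefSeq probes alone, 5.51 with updated gene names and 5.46 with EIF and EEF names alone. It became 6.15 without probes made from expressed sequence tags, an alternative chosen after seeing the data. The count detected in supernatant, and the equal count measured on both arrays, was 22, but 51 with the weaker flag, 12 with the stricter filter and 2 where every probe of the gene was required. The count at least 2-fold above the median gene was 20, but 47 with the weaker flag, 11 with the stricter filter and 52 with no filter. These counts change with how many genes each filter lets in. The shares of all named genes under these filters are not given, so the changed counts are not read as results about the factors. Of the single genes, EIF2B4 turned its sign with no filter (3.74) and was between -0.58 and -0.18 otherwise, and EIF2B3 lost its 2-fold call with normexp (0.08) and reached 3.63 with no filter. EIF1 ran between 2.92 and 7.05, EIF3K between 2.35 and 5.58, EEF1B2 between 4.07 and 7.23, EIF5A between 4.07 and 6.68, EIF4EBP1 between 2.10 and 5.08, EIF4E2 between 1.24 and 3.18, EIF2D between 1.04 and 2.71 and EIF4E1B between -3.44 and -2.07. The other 12 measured members lay between 2.02 (EIF2B5) and 9.69 (TPT1). The 29 of 33 bounds at least 2-fold past the median gene became 18 past zero with the 75th percentile over probes detected on both arrays and 17 with that over all probes. Supernatant signals near background limit every fold, and an array pair cannot show the spread between milks.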
